A study of Mus musculus with 24 samples.

Results

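Hox genes encode the homeodomain transcription factors that give the cells of the embryo their position along the head-to-tail axis. In the mouse they lie in 4 clusters, a to d, and a gene's number gives its paralogue group, from 1 at the 3′ end of a cluster to 13 at the 5′ end. In the embryo 3′ genes are switched on first and nearest the head, 5′ genes later and nearer the tail, and retinoic acid, Wnt and FGF signals act on the order of onset. In embryonic stem cells the clusters are known to be held silent under Polycomb marks, while fibroblasts of the trunk and limbs keep expressing the Hox genes of the place they came from. The entries of the deposited count table whose gene name was Hox, a cluster letter and a number were taken, which gave 39 genes of 55401 entries. The 3′ class below is paralogue groups 1 to 4 (12 genes), the central class 5 to 8 (11 genes) and the 5′ class 9 to 13 (16 genes).

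Polyadenylated RNA of CJ9 mouse embryonic stem cells was sequenced in 24 libraries. Wild-type cells and 1 CRISPR knock-out line of Setd3, a SET-domain histidine methyltransferase of actin, were each taken before (day 0) and 2, 3 and 4 days into serum-free endoderm differentiation, with 3 libraries in each of the 8 groups. Stem cells had been maintained with LIF on inactivated mouse embryonic fibroblasts (the feeder layer), were separated from it at the start of differentiation, and received Activin A from day 2. The labels do not say whether the day 0 cells were sampled before or after that separation, nor whether the 3 libraries of a group came from separate cultures, so p-values measure only the spread between these libraries.

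Library totals ran from 18531390 to 24244958 gene counts. Levels are given in CPM, a gene's counts over the scaled library total. Group values are means ± SD (n = 3 libraries). Setd3 lay between 97.1 and 127 CPM in the 12 wild-type libraries and between 29.1 and 48.8 CPM in the 12 knock-out libraries, which did not overlap. The 10 stem cell markers were all detected at day 0 and summed to 3147 ± 205 CPM in wild-type and 3232 ± 140 CPM in knock-out libraries. Markers of fibroblasts were also present at day 0: the 18 genes of that list, among them the collagen genes Col1a1, Col1a2 and Col3a1 and the mesenchymal homeobox gene Prrx1, were all detected, with sums over the wild-type libraries of 1140, 1998 and 1699 CPM and over the knock-out libraries of 2959, 2102 and 1092 CPM. At day 2 the same list summed to 99.2 to 120 CPM in wild-type and 111 to 204 CPM in knock-out libraries, and at day 4 to 33.3 to 35.5 and 41.4 to 49.7 CPM.

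**Figure D1:**
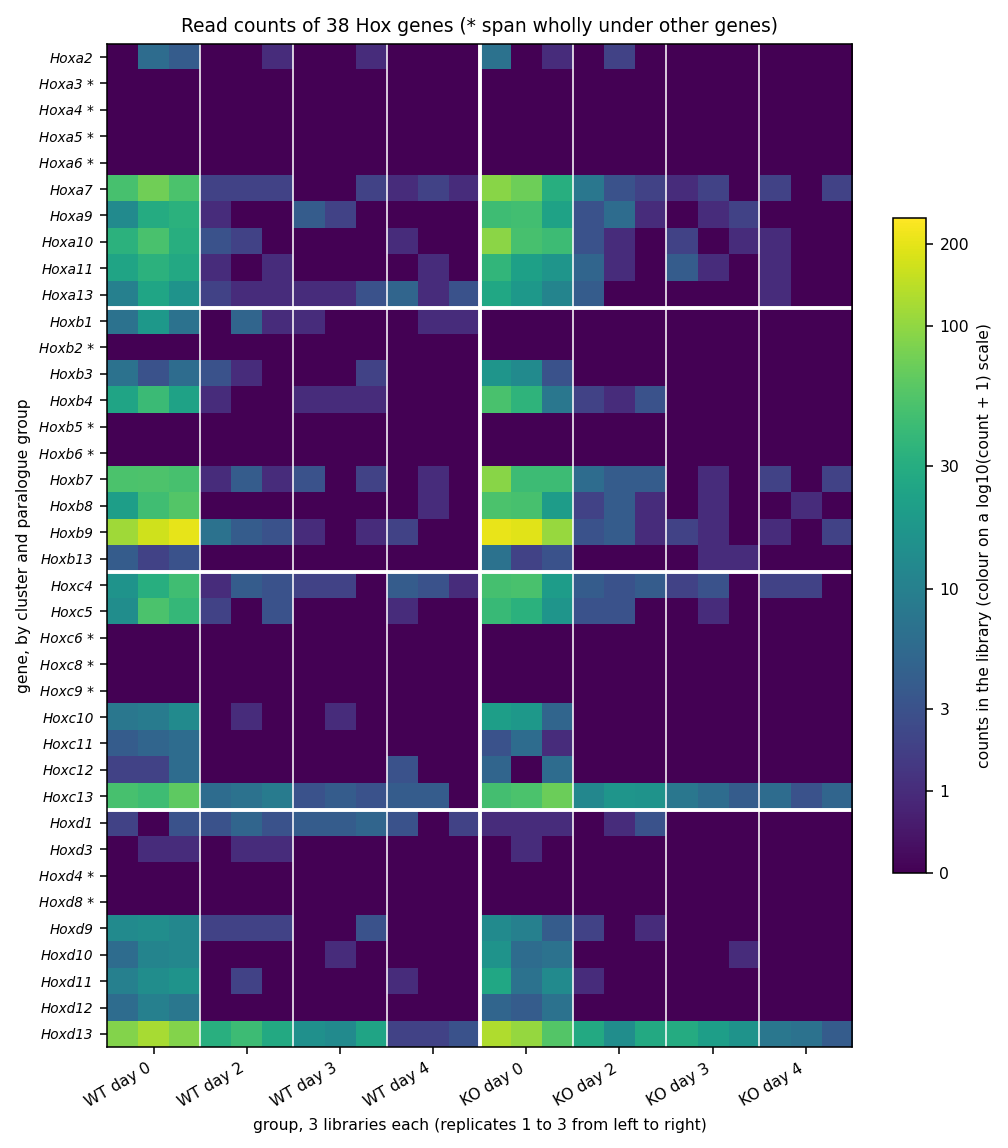
Counts of 38 Hox genes (rows, by cluster and paralogue group) in 24 libraries (columns, 3 to a group), with colour on a log10(count + 1) scale. The 12 rows with an asterisk are 0 throughout; nearly all other counts stand in the day 0 columns of both genotypes, and Hoxd13 and Hoxc13 keep counts at later days.

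Of the 39 genes, 27 had at least 1 count in the 24 libraries and 12 were listed at 0 in every library. The 12 were Hoxa3, Hoxa4, Hoxa5, Hoxa6, Hoxb2, Hoxb5, Hoxb6, Hoxc6, Hoxc8, Hoxc9, Hoxd4 and Hoxd8. They were 4 of 12 genes of the 3′ class, 7 of 11 of the central class and 1 of 16 of the 5′ class. In the GENCODE M21 annotation (build GRCm38) each of the 12 lies wholly under the span of other annotated genes. Hoxa4, Hoxa5 and Hoxa6, for example, lie inside the span given to Hoxa3 (chr6:52169062-52213336, minus strand), which itself lies inside that of Gm28308. Hoxc6, Hoxc8 and Hoxc9 lie inside the span of Hoxc5 (chr15:102967443-103017429, plus strand), Hoxd4 inside that of Hoxd3 (chr2:74711927-74748442, plus strand), and Hoxb5 and Hoxb6 inside that of the antisense gene Hoxb5os. None of the 16 Hox genes free of any other span and none of the 11 partly covered ones was at 0 throughout.

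The same held across the table. Of 12996 genes wholly under other spans, 12816 (98.6%) were at 0 in all libraries, against 6.7% of partly covered genes and 41.4% of uncovered ones. Among protein-coding genes the shares at 0 were 92.0%, 2.9% and 17.2%. Where the cover was complete only with genes of the other strand, 98.1% were at 0. The 12 zeros are therefore not read as levels here, and levels per kilobase below use only exon bases outside other spans. What follows on clusters and classes is about the 27 counted genes, in which the central class (4 counted of 11) is the thinnest.

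At day 0 the counted Hox genes were low but present in all 6 libraries. Their sums were 28.5, 38.1 and 37.1 CPM in wild-type and 56.4, 38.5 and 26.5 CPM in knock-out libraries, so the groups overlapped. All 27 had a count in wild-type cells and 26 in knock-out cells, and 13 and 12 of them reached a mean of 1 CPM. Hoxb9 and Hoxd13 alone exceeded a mean of 4 CPM, in both genotypes.

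Hoxb9, a 5′ gene of the lower thoracic region, was the highest. It had 5.38, 7.23 and 8.75 CPM in the wild-type libraries and 10.7, 8.89 and 5.18 CPM in the knock-out libraries. Hoxd13, the last gene of its cluster and required for the digits, the genitalia and the hindgut end, followed with 4.20, 5.14 and 3.84 CPM in wild-type and 6.57, 4.69 and 2.76 CPM in knock-out libraries. In both genes the knock-out libraries spread around the wild-type ones.

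Hoxa7 had 49, 74 and 52 counts in wild-type and 94, 73 and 31 in knock-out libraries, with means of 2.57 and 3.20 CPM. Hoxb7, its paralogue in cluster b, had 52, 53 and 49 counts against 94, 43 and 43, and means of 2.28 and 2.95 CPM. Both belong to the group that patterns the thorax. Hoxa10, known for the lumbar region and the uterus, had 34, 50 and 31 counts against 96, 49 and 43, and Hoxc13, known for hair and nail formation, had 49, 44 and 63 against 47, 52 and 71. The first knock-out library was the highest for Hoxa7, Hoxb7 and Hoxa10 but not for Hoxc13.

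Per kilobase of exon outside other spans, Hoxb9 remained the highest (2.77 CPM per kilobase in wild-type, 3.21 in knock-out), followed in wild-type by Hoxd13 (1.77), Hoxb7 (1.48) and Hoxa7 (1.12). The median level per kilobase at day 0 in wild-type was 0.344 for the 3′ class, 0.899 for the central class and 0.465 for the 5′ class. By cluster the medians were 0.518 for a, 0.510 for b, 0.519 for c and 0.270 for d. The 5′ class held 62.1% of the Hox counts in wild-type and 64.0% in knock-out cells at day 0, the central class 23.6% and 23.5%, and the 3′ class 14.3% and 12.5%. Cluster b held the largest share, 38.6% and 38.0%. These shares leave out the 12 genes at 0 and so cannot be set against a full cluster.

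Within each genotype the 3 day 0 libraries had the same order by Hox sum as by fibroblast sum. In the knock-out the fibroblast sum was 2.71 times as high in replicate 1 as in replicate 3, and the Hox sum 2.13 times. Of the 18 Hox genes with enough counts to test, 16 were higher in that replicate 1 than in replicate 3, beside 48.6% of all 17144 tested genes. Hoxc13, with a ratio of 0.68, was among the exceptions. In wild-type the fibroblast sum was 1.75 times and the Hox sum 1.34 times as high in replicate 2 as in replicate 1, and 15 of the 18 were higher there, beside 53.3% of all tested genes. The exceptions were Hoxb7 (0.92), Hoxc13 (0.81) and Hoxd9 (0.98). The Hox sum per 1000 CPM of fibroblast markers stayed between 18.3 and 25.0 over the 6 day 0 libraries. In bulk RNA fewer cells of a type and less RNA per cell cannot be told apart, and the part of feeder cells in the Hox counts was not tested.

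**Figure D2:**
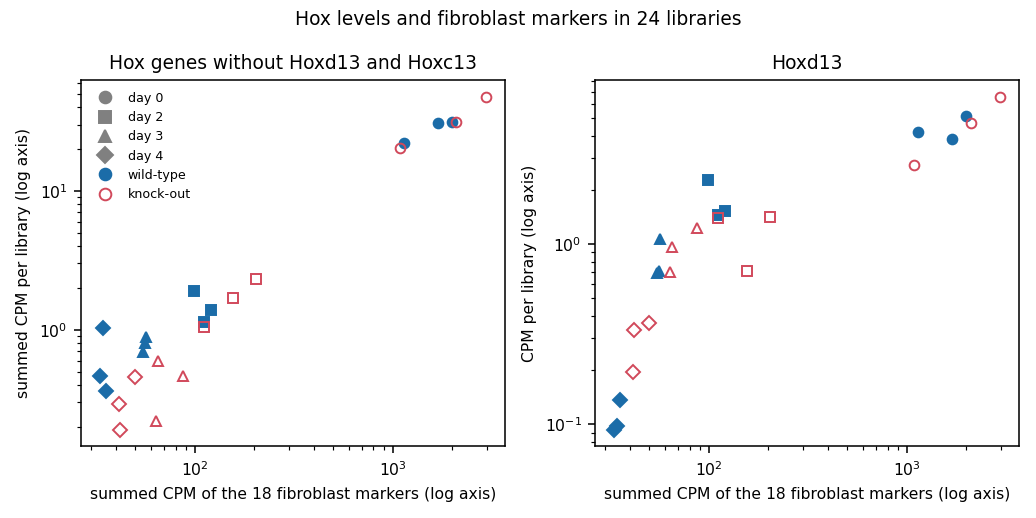
Summed CPM of 25 counted Hox genes, all but Hoxd13 and Hoxc13 (left), and CPM of Hoxd13 (right), against the summed CPM of 18 fibroblast markers in each of 24 libraries, both axes logarithmic. On the left the day 0 libraries stand apart at 20.2 to 47.4 CPM. On the right the day 2 and day 3 libraries sit high for their summed marker level.

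Next, day 2 was compared with day 0 within each genotype, the step that followed culture on the feeder layer. The Hox sum at day 2 was 3.60 ± 0.81 CPM in wild-type and 3.61 ± 0.616 CPM in knock-out cells (n = 3), 9.60-fold and 11.2-fold below day 0. By the quasi-likelihood test of edgeR, adjusted over all tested genes by Benjamini and Hochberg's method, all 18 tested Hox genes fell in both genotypes. The background was high: 31.8% of all tested genes fell in wild-type and 30.6% in knock-out cells. The 18 are also not a free sample of Hox genes, since 16 of them passed the filter on low counts through their day 0 libraries. Without those libraries only Hoxc13 and Hoxd13 passed. The median log2 fold change of the 18 was -4.35 in wild-type and -3.80 in knock-out cells, beside 0.01 and -0.01 over all tested genes.

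The size of the fall differed widely between genes. Hoxb9 went from 114, 169 and 203 counts to 7, 4 and 3 in wild-type and from 210, 197 and 105 to 3, 4 and 1 in knock-out cells. That was a 30.3-fold fall (95% counting interval 17.9 to 55.8) and a 61.4-fold fall (30.9 to 143); the log2 fold changes were -4.88 ± 0.40 (adjusted p = 1.4e-10) and -5.88 ± 0.44 (adjusted p = 2.65e-11). The ± after a log2 fold change is an error worked back from the F statistic (the change divided by √F), and counting intervals are exact binomial ones that cover counting error only.

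Hoxa7 fell 25.5-fold (11.5 to 70.3) in wild-type and 14.6-fold (8.36 to 27.9) in knock-out cells, and Hoxb7 22.4-fold (10.1 to 62.0) and 12.3-fold (7.17 to 23.0). Hoxa10 fell 20.1-fold (8.36 to 63.0) and 45.1-fold (17.3 to 167). At day 2 none of these 3 had more than 8 counts in a library. Hoxb8 had no count in the wild-type day 2 libraries, an at least 35.5-fold fall from 122 counts, and 7 counts over the knock-out ones.

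Among the 18 tested Hox genes, Hoxd13 had the smallest fall in wild-type cells and Hoxc13 in knock-out cells, both of paralogue group 13. Hoxd13 still had 32, 43 and 28 counts at day 2 in wild-type and 28, 14 and 28 in knock-out cells, a 2.53-fold fall (2.01 to 3.19) and a 3.96-fold fall (3.04 to 5.22). Its log2 fold changes were -1.33 ± 0.28 (adjusted p = 0.000226) and -1.99 ± 0.30 (adjusted p = 2.93e-06). Hoxc13 kept 6, 7 and 9 counts in wild-type and 12, 17 and 16 in knock-out cells, a 6.19-fold fall (3.95 to 10.2) and a 3.63-fold fall (2.60 to 5.16). Of the tested genes, Hoxd9 stood between them in wild-type at 5.67-fold (2.39 to 16.4), with 6 counts left over the 3 libraries. For Hoxd13 the counting intervals lay below those of Hoxb9, Hoxa7, Hoxa10 and Hoxb7 in both genotypes; the difference between genes was not tested.

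**Figure D3:**
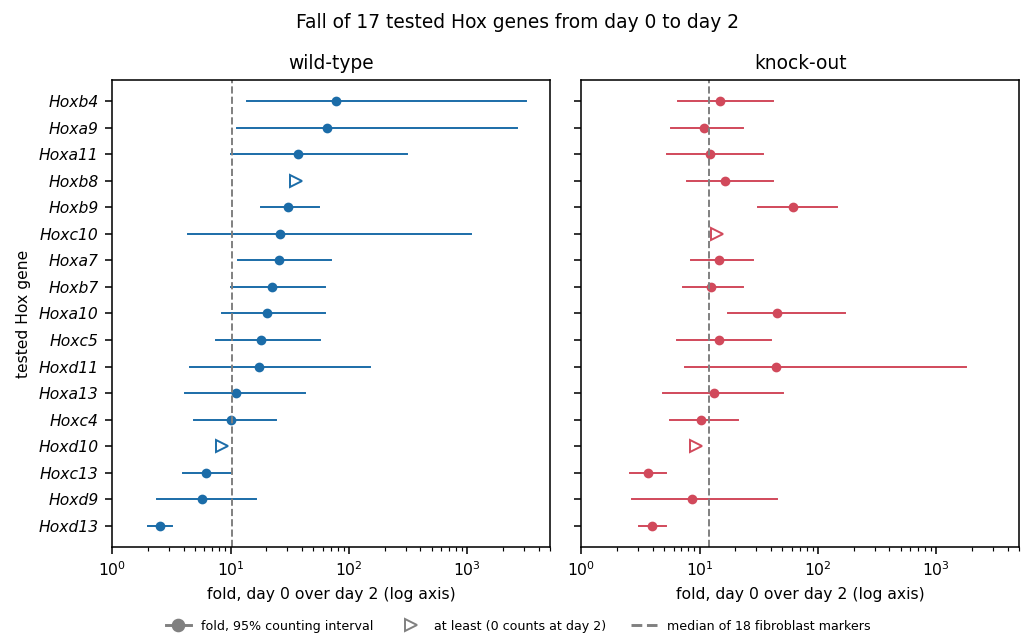
Fold of day 0 over day 2 for 17 tested Hox genes in each genotype, on a log axis, with exact 95% counting intervals, open triangles for lower bounds and a dashed line at the median of the 18 fibroblast markers. Hoxd13 lies at 2.53 in wild-type and 3.96 in knock-out cells, left of the dashed lines at 10.3 and 12.0.

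Folds were then compared from 3′ to 5′. Over the counted genes with more than 3 counts at day 0, and with lower bounds entered at their bound, the median fall in wild-type was 8.73-fold in the 3′ class (7 genes), 23.9-fold in the central class (4 genes) and at least 8.44-fold in the 5′ class (15 genes, 5 of them lower bounds). In knock-out cells it was at least 10.6-fold (5 genes, 1 lower bound), 14.5-fold (4 genes) and at least 9.28-fold (15 genes, 6 lower bounds). With so many bounds the classes cannot be put in order. By cluster, the summed level at day 2 was lower 25.0-fold in a, 25.4-fold in b, 9.71-fold in c and 3.05-fold in d in wild-type, and 16.8-fold, 26.1-fold, 6.87-fold and 5.11-fold in knock-out cells. In cluster d, Hoxd13 held 103 of the 124 wild-type counts at day 2.

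All 18 fibroblast markers fell over the same step in both genotypes, with folds from 1.89 to 371 (median 10.3) in wild-type and from 1.78 to 321 (median 12.0) in knock-out cells. The stem cell markers also fell, 10 of 10 in wild-type and 9 of 10 in knock-out cells. Of all tested genes 31.8% and 30.6% fell. The fibroblast sum was 14.6-fold and 13.1-fold lower at day 2, and the sum of all Hox genes 9.60-fold and 11.2-fold. Without Hoxd13 and Hoxc13 the Hox sum was 18.9-fold and 19.7-fold lower. These 2 genes were left out for their small falls in these same data, so nothing is read from the larger fall of the others. Per 1000 CPM of fibroblast markers these Hox genes had 15.6 to 19.2 CPM at day 0 in wild-type and 15.0 to 18.5 in knock-out cells. At day 2 it was 10.3, 11.6 and, in replicate 2, 19.1 in wild-type and 9.45 to 11.3 in knock-out cells. There 5 of the 6 day 2 libraries lay below every day 0 library, which the choice of genes favours. Without these 2 genes the ratio was 12.7 to 15.7 at day 3 and 10.3 to 30.04 at day 4 in wild-type. In knock-out cells it was 3.45 to 9.21 and 4.53 to 9.13. For Hoxd13 the same ratio was 2.22 to 3.68 at day 0, 4.59 to 22.8 at day 2, 11.1 to 18.8 at day 3 and 2.80 to 7.93 at day 4. The markers did not move together after day 2. In wild-type at days 2, 3 and 4, Col3a1 had means of 18.7, 1.56 and 0.538 CPM. Col1a2 had 8.73, 7.41 and 8.01 CPM, and Pdgfrb 5.29, 7.61 and 8.59 CPM. The later ratios are therefore not read as a level per fibroblast, and which cells the marker counts came from was not tested. Hoxd13 made up 10.3% to 14.8% of a library's Hox counts at day 0, 21.9% to 50.0% at day 2 and 42.9% to 64.0% at day 3. At day 4 it made up 7.4% to 27.3% in wild-type and 26.7% to 50.0% in knock-out libraries.

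Primitive streak markers rose from day 2 to day 3, 7 of 7 in wild-type and 5 of 7 in knock-out cells. Of all tested genes 21.4% and 14.7% rose. Hox onset was then looked for at days 3 and 4. None was detected among the counted genes. The Hox sum was lower again, at 1.78 ± 0.276 CPM at day 3 and 0.858 ± 0.425 CPM at day 4 in wild-type, and at 1.66 ± 0.494 and 0.828 ± 0.228 CPM in knock-out cells (n = 3). Members with a count numbered 21, 17 and 15 at days 2, 3 and 4 in wild-type, and 18, 14 and 11 in knock-out cells. No member reached a mean of 1 CPM at day 3 or 4. With 54 and 53 Hox counts left over the 3 day 4 libraries of each genotype, a rise within a single gene of a few counts would not have been detectable.

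No Hox gene rose in any step after day 2 by the edgeR test after adjustment, where 21.4% and 22.4% of all tested genes rose in wild-type (day 2 to 3, then day 3 to 4) and 14.7% and 5.76% in knock-out cells. Nothing is read from that contrast, since 16 of the 18 genes were tested through their day 0 counts and some steps compared 0 counts with 0. In wild-type cells 2 of 18 fell from day 2 to day 3 (Hoxb9 and Hoxd13), where 21.1% of all tested genes fell, and 1 fell from day 3 to day 4 (Hoxd13), where 23.1% did. In knock-out cells 2 fell from day 2 to day 3 (Hoxb7 and Hoxc13), beside 14.4% of tested genes, and 1 from day 3 to day 4 (Hoxd13), beside 5.83%. The call of Hoxb9 was lost in 4 of 6 fits that left out 1 library, those without wild-type day 2 replicate 1 (adjusted p = 0.112) or day 3 replicate 1 (0.0547), 2 (0.09) or 3 (0.0549). That of Hoxd13 at the same step was lost without wild-type day 2 replicate 2 (0.0792) or day 3 replicate 1 (0.0542), and that of Hoxb7 without knock-out day 2 replicate 1 (0.0509) or day 3 replicate 1 (0.0612) or 3 (0.061). The call of Hoxd13 from day 3 to day 4 in wild-type held without each of the 6 libraries in turn.

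Among members of the later days, Hoxd13 stayed the highest. It had 15, 13 and 24 counts at day 3 and 2, 2 and 3 at day 4 in wild-type, and 29, 21 and 16, then 8, 7 and 4, in knock-out cells. Its log2 fold change from day 3 to day 4 was -2.85 ± 0.54 (adjusted p = 0.000109) in wild-type and -1.68 ± 0.43 (adjusted p = 0.0109) in knock-out cells, where the call was lost without knock-out day 3 replicate 1 (adjusted p = 0.0664) or day 4 replicate 3 (0.0696). At day 4 every knock-out library had more Hoxd13 counts than any wild-type one. Hoxc13 had 3, 4 and 3 counts, then 4, 4 and 0, in wild-type and 8, 6 and 4, then 6, 3 and 5, in knock-out cells.

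Hoxa13, a partner of Hoxd13 in the limb and the hindgut, had 1, 1 and 3 counts at day 3 and 5, 1 and 3 at day 4 in wild-type. In knock-out cells it had none at day 3 and 1, 0 and 0 at day 4. The differences between genotypes did not pass the test (adjusted p = 0.0718 and 0.0644). Hoxc4 had 2, 2 and 0 counts, then 4, 3 and 1, in wild-type and 2, 3 and 0, then 2, 2 and 0, in knock-out cells. Hoxa9 had 4, 2 and 0 counts at day 3 and none at day 4 in wild-type, Hoxb7 had 3, 0 and 2, then 0, 1 and 0, and Hoxa11 reached 4, 1 and 0 counts at day 3 in knock-out cells. At this depth such values cannot be ordered.

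**Figure D4:**
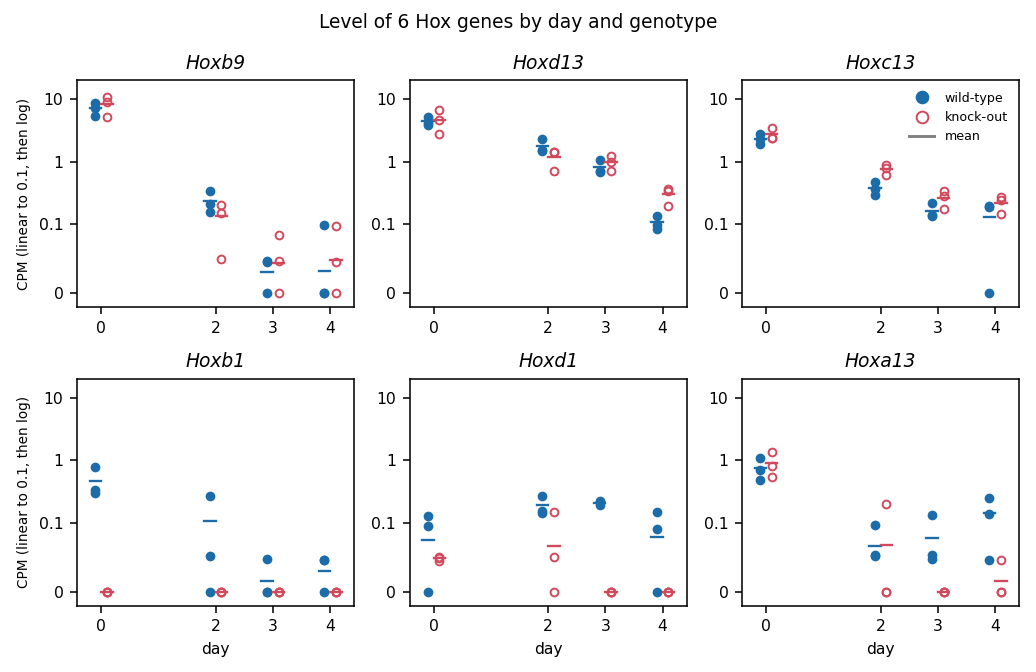
CPM of 6 Hox genes in each library (points) with group means (bars) against day, wild-type filled and knock-out open; the axis is linear to 0.1 CPM and logarithmic above. Hoxb9 stands for the genes that were high at day 0 and low after it, Hoxd13 stays above 0 in every library and Hoxc13 in all but 1, and Hoxb1 and Hoxd1 have points above 0 mainly in wild-type libraries.

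Between genotypes, 0 of 18 tested Hox genes differed on any of the 4 days in the edgeR test after adjustment. Of all tested genes, 21.1% differed at day 0 and 32% at day 2, then 41.2% at day 3 and 54% at day 4. For days 2 to 4 nothing is read from that contrast, since 16 of the 18 genes had passed the filter through day 0, and at day 4 5 of them had 0 counts in both genotypes. At an unadjusted p under 0.05 the Hox genes numbered 1, 3, 2 and 2. The median log2 fold change of the 18 at day 0 was 0.23, beside 0.01 over all tested genes. DESeq2's Wald test called 1 at day 2 (Hoxb8, higher in the knock-out, adjusted p = 0.0342) and 0 at the other days. The mean was higher in the knock-out for 14 of the 18 at day 0 and lower for the other 4. At days 2, 3 and 4 it was higher for 10, 9 and 7, lower for 7, 8 and 6, and equal for 1, 1 and 5. The day 0 fibroblast sums were 2051 ± 935 CPM in the knock-out and 1612 ± 435 CPM in wild-type, and the libraries overlapped. Their part in these directions was not tested.

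At day 2 the values of Hoxc13 and Hoxd13 lay in opposite directions, neither past the test. Hoxc13 was higher in all 3 knock-out libraries than in any wild-type one, by 1.01 ± 0.40 on the log2 scale, with an adjusted p of 0.0592 that became 0.0495 when only both day 2 groups were fitted. Hoxd13 was lower in the knock-out by a log2 fold change of -0.57 ± 0.32 (adjusted p = 0.188), again with no overlap, which 49% of all tested genes showed at that day. At day 4 Hoxd13 was higher in the knock-out by 1.40 ± 0.65 (adjusted p = 0.0736), with no overlap, which 60.7% of tested genes showed.

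The change of Hoxd13 from day 2 to day 4 differed between the genotypes. The level at day 4 was 16.0-fold lower in wild-type and 3.95-fold lower in knock-out cells, and the difference of the changes was 1.97 ± 0.73 on the log2 scale (adjusted p = 0.0408). It was the 1 Hox gene of 18 called in that comparison, beside 16.4% of all tested genes called in that direction. The call was lost in 7 of 12 fits that left out 1 library, with adjusted p-values from 0.0335 to 0.111 over the 12. Those 7 libraries were knock-out day 2 replicate 2 (0.0751), day 4 replicate 1 (0.111) and day 4 replicate 2 (0.0884), and wild-type day 2 replicate 2 (0.0783) and day 4 replicates 1 (0.0885), 2 (0.0892) and 3 (0.0534).

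Paralogue group 1 holds the earliest Hox genes of the embryo, known targets of retinoic acid that pattern the hindbrain. Hoxb1 and Hoxd1 were both under the filter, and Hoxb1 was chosen for description after its values were seen. Hoxb1 had 7, 18 and 7 counts in the wild-type day 0 libraries, 0, 5 and 1 at day 2, 1, 0 and 0 at day 3 and 0, 1 and 1 at day 4. It had 0 counts in all 12 knock-out libraries. Which cells its wild-type counts came from was not tested. At day 0 the level was at least 9.77-fold higher in wild-type cells, with the floor of 3 counts over the 3 knock-out libraries. A fit without the filter gave an adjusted p of 0.000635, while DESeq2 gave no adjusted p for it.

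Of the 26 members with more than 3 counts in wild-type cells at day 0, 25 were lower at day 2. A choice by day 0 counts favours a fall, so nothing is read from that number. Hoxd1 was the exception. It had 2, 0 and 3 counts at day 0, 3, 5 and 3 at day 2, 4, 4 and 5 at day 3 and 3, 0 and 2 at day 4. In knock-out cells it had 1, 1 and 1, then 0, 1 and 3, and none at days 3 and 4. The rise from day 0 to day 2 in wild-type did not pass (adjusted p = 0.342 without the filter). At day 3 the level was at least 4.74-fold higher in wild-type (adjusted p = 0.00494 without the filter, and no adjusted p from DESeq2). Its antisense neighbour Haglr had 7, 4 and 8 counts in the wild-type and 0 in the knock-out day 3 libraries. At days 0, 2 and 4 Haglr had counts in both genotypes. Of 4 tested non-coding genes of the clusters, 0 differed between the genotypes at day 3. Nothing is read from that number, since all 17 found had 28 counts in wild-type and 13 in knock-out libraries at that day.

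Promoters of the genes that stood out were read from the RefSeq promoter table (build GRCm38.p6), which held 22 of the 39 Hox genes. Shown are the 250 bases before the start of Hoxd13, the member with the most counts after day 0, and of Hoxb1, with no count in the knock-out libraries. They lie at chr2:74667975-74668224 and chr11:96365508-96365757, both on the plus strand. Capitals mark matches, on either strand, to 3 promoter motifs, whose matches can overlap. The TATA box was searched as TATAAA. The CCAAT box was searched by the letters of its name. The GC box was searched as GGGCGG.
Hoxd13: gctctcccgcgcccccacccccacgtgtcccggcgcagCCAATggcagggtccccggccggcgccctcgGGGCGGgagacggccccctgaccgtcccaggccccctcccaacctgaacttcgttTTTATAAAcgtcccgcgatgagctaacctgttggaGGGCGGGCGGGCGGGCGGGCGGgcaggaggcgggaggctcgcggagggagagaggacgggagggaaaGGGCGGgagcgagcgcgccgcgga
Hoxb1: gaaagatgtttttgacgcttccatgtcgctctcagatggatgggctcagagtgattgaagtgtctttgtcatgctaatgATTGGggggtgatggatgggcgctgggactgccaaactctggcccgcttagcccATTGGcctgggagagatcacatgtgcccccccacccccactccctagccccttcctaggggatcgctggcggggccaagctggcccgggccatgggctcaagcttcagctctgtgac
The Hoxd13 stretch had a GC content of 74.4%, with 7 matches to the GC box, 2 to the TATA box and 1 to the CCAAT box. The 2 TATA box matches overlap in 1 marked run, and most of the GC box matches overlap in another. The Hoxb1 stretch had a GC content of 59.2% and 2 CCAAT boxes. Over the 22 Hox promoters, taken as 1 a gene, the median GC content was 56.8%. Over all 32851 promoters of the table, a set picked by another rule, it was 52.4%. A CCAAT box was found in 59.1% of the Hox promoters (13 of 22) and 33.9% of all. A GC box was found in 40.9% and 32.7%, and a TATA box in 13.6% and 12.4%. The caudal-type motif TTTATGG was found in 4.55% and 2.43%. These matches describe the letters only.

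The non-coding genes of the clusters also had most of their counts at day 0. Of 17 found, 11 had counts and 4 were tested. All 4 fell from day 0 to day 2 in both genotypes, beside 31.8% of all tested genes in wild-type and 30.6% in knock-out cells. At day 2 the 17 together had 11, 15 and 16 counts in wild-type and 11, 14 and 12 in knock-out libraries. A gene that passes the filter on low counts through day 0 is bound to fall, so nothing is read from that contrast. Halr1, a long non-coding RNA at the 3′ end of cluster a, was more abundant at day 0 than any Hox gene, with 20.5, 16.7 and 19.5 CPM in wild-type and 12.2, 13.9 and 16.8 CPM in knock-out libraries. In both genotypes its order over the 3 libraries was the reverse of that of the fibroblast sum. It fell by 6.62 ± 0.36 on the log2 scale in wild-type (adjusted p = 6.31e-14) and by 5.80 ± 0.35 in knock-out cells (adjusted p = 5.05e-13). Hotairm1, a non-coding RNA of cluster a, had 20, 41 and 58 counts at day 0 in wild-type and 19, 25 and 21 in knock-out cells, and at most 5 in any later library. The use of strand in the counting is not given. Of the genes wholly covered only with genes of the other strand, 98.1% were at 0 in all libraries. How reads were counted where sense and antisense genes such as Hoxa11 and Hoxa11os overlap was not tested.

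Of 12 tested genes known to act upstream of Hox genes, 5 were lower and 0 higher in the knock-out at day 0, where 21.1% of all tested genes differed in either direction. At day 2 3 were lower and 1 higher (32% of all), at day 3 6 and 2 (41.2%) and at day 4 5 and 3 (54%). Cdx1 and Cdx2, caudal-type homeobox genes that act on central Hox genes, were lower at day 0 with log2 fold changes of -1.97 (adjusted p = 4.64e-05) and -5.03 (adjusted p = 9.19e-07). Cdx2 had 33, 108 and 90 counts in the wild-type day 0 libraries and 4, 1 and 1 in the knock-out ones. Wnt3, a ligand of canonical Wnt signalling, was lower at day 0 too (log2 fold change -4.04, adjusted p = 1.07e-10), as was Fgf8, a ligand of FGF signalling (log2 fold change -5.50, adjusted p = 2.9e-07).

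In the retinoic acid pathway 7 of 18 genes were lower and 4 higher in the knock-out at day 4, a share near the 54% of all tested genes that differed at that day. Cyp26a1, which breaks retinoic acid down, had 6485, 5273 and 4703 counts in wild-type and 28, 29 and 62 in knock-out libraries at that day (log2 fold change -7.11, adjusted p = 8.64e-09). Rarb, a retinoic acid receptor and a known retinoic acid target, had 166, 121 and 87 against 8, 8 and 11 (log2 fold change -3.78, adjusted p = 5.48e-10). Other genes of the list went the other way. Rarg, also a receptor, had a mean of 50.2 CPM in wild-type and 118 CPM in knock-out cells, and Crabp2 1.65 and 10.2 CPM. Hoxb1 and Hoxd1 had no more than 3 counts in any day 4 library of either genotype.

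Partners and regulators of Hox genes were looked at last. Of the 9 PBC and MEIS class cofactors, homeodomain proteins that bind DNA with Hox proteins, 5 rose and 4 fell from day 0 to day 2 in wild-type, where 32% of all tested genes rose and 31.8% fell. Pbx3 rose by 1.82 on the log2 scale (adjusted p = 3.03e-09) and Meis1 fell by 2.71 (adjusted p = 3.89e-06). Of the 16 Polycomb and Trithorax-group genes, 1 was higher in the knock-out at day 0 (Kdm6a), beside 21.1% of all tested genes that differed. At day 4 5 were higher and 4 lower, a share near the 54% of all tested genes, among them Cbx7, up by 1.24 (adjusted p = 2.49e-08), and Ring1, with a log2 fold change of -1.24 (adjusted p = 2.29e-08). Of 13 tested protein-coding genes next to the clusters, 5 fell and 3 rose from day 0 to day 2 in wild-type, beside 31.8% and 32% of all tested genes. Evx1, the homeobox gene at the 5′ end of cluster a, was lower in the knock-out at days 0, 3 and 4, with a log2 fold change of -5.61 at day 3 (adjusted p = 1.15e-10).

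Markers of caudal progenitors, the cells of the embryo in which trunk Hox genes are switched on, differed by day and genotype. Of 7 found, 6 had counts and Nkx1-2 was at 0 throughout. Their sum was 24.7 ± 8.37, 27.1 ± 4.96, 70.9 ± 10.2 and 163 ± 19.2 CPM at days 0, 2, 3 and 4 in wild-type and 5.66 ± 0.14, 14.2 ± 1.03, 23.4 ± 1.28 and 30.5 ± 3.60 CPM in knock-out cells (n = 3). The wild-type sum at day 4 was mostly Greb1 (117 CPM) and Evx1 (45.0 CPM). Cdx1 went from 12.5 CPM at day 0 to 0.173 CPM at day 4 in wild-type, and Cdx2 from 3.35 to 0.246 CPM. At day 3 all 5 tested were lower in the knock-out, where 41.2% of all tested genes differed in either direction. The ratio of the Hox sums, knock-out over wild-type, was 1.17, 1.00, 0.93 and 0.97 at the 4 days.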

How the data were processed

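RNA-seq reads were trimmed with Trimmomatic and aligned with HISAT2 to GRCm38.p6, per the submitters' processing notes; versions, the counter, its annotation and strand setting are not given in the sources used. The authors deposited raw counts per gene, 1 column per library. Tests used edgeR 4.0.16 (R 4.3.3) on those counts: TMM scaling, filterByExpr by group (17144 genes kept), 1 robust quasi-likelihood model of 8 groups and 11 comparisons, with Benjamini-Hochberg adjustment over all tested genes and a threshold of 0.05. DESeq2 1.42.0 served as an alternative. The code was tested on simulated data. Folds of summed counts carry exact binomial (Clopper-Pearson) intervals (scipy 1.17.1), and a group at 0 is entered at 3 counts over its libraries. Spans and exons came from GENCODE M21 (55141 identifiers matched).

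The 39 members, the gene lists and the tests were chosen with earlier results of these data known. Named were the 6 genes highest at day 0 and the 8 highest at days 3 and 4; Hoxb1, Hoxb8 and Hoxd9 were added after their values were seen. No 2 libraries of a group were duplicates (chi-square per gene 3.2 to 28.4 over 24 pairs). An entry with no gene name was left out, and 1 member is in the counts but its values are not reported here.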

Additional observations from a re-analysis of the deposited data

Results flagged for a closer look

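The change of Hoxd13 from day 2 to day 4 differed between the genotypes in a test of the difference itself, the interaction term of the edgeR model: the fall was smaller in the knock-out by 1.97 on the log2 scale (adjusted p = 0.0408, 3 libraries a group). All 3 knock-out libraries lay below all 3 wild-type libraries at day 2 (28, 14 and 28 counts against 32, 43 and 28 before scaling) and above them at day 4 (8, 7 and 4 against 2, 2 and 3). Of all tested genes 49% and 60.7% had no overlap at those days. The nearest day 2 libraries had 28 counts each and differed only after scaling (1.41 CPM in the knock-out, 1.45 CPM in wild-type). The day 4 wild-type group rests on 7 counts in all. The adjusted p ranged from 0.0234 to 0.0415 over 6 alternatives that kept every library of these groups, and the call was lost in 7 of 12 fits without 1 library.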

How the results depend on the processing

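The number of Hox genes called was recomputed for 11 comparisons under each alternative, and no called result reversed under any of them. With DESeq2's size factors all 11 counts stayed within 1.5 times. Without the filter on low counts, 1 gene was called between the genotypes at day 0 (Hoxb1), 1 at day 2 (Hoxb8, adjusted p = 0.0429) and 1 at day 3 (Hoxd1), and 2 fell from day 3 to day 4 in wild-type (Hoxd13 and Hoxa9, adjusted p = 0.0477). DESeq2's Wald test called 1 between the genotypes at day 2 (Hoxb8) and 2 in that last step (adjusted p = 0.0444 for Hoxa9). Fitting only the groups compared called 1 of 2 genes tested between the genotypes at day 2 (Hoxc13), 1 of 1 in wild-type from day 2 to 3 (Hoxd13) and 1 of 2 in the knock-out (Hoxc13). An alternative chosen after seeing the data, days 2 to 4 only, called 1 between the genotypes at day 4 (Hoxd13, adjusted p = 0.0485), 1 in wild-type from day 2 to 3 and 1 in the knock-out; fewer Hox genes were tested there (2). Apart from that smaller number tested, the cause was not tested.

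Leaving out 1 library at a time gave counts between the genotypes of 0 to 0 at day 0, 0 to 1 at day 2, 0 to 0 at day 3 and 0 to 1 at day 4. From day 0 to 2 they were 17 to 18 in wild-type and 18 to 19 in the knock-out, from day 2 to 3 they were 0 to 3 and 1 to 2, and from day 3 to 4 they were 1 to 2 and 0 to 1. The interaction gave 0 to 1. Calls gained were Hoxa13 at day 4 without knock-out replicate 1 (adjusted p = 0.0464) or wild-type replicate 2 (0.039), Hoxb8 at day 2 without knock-out replicate 3 (0.0478), Hoxa10 from day 2 to 3 without wild-type day 2 replicate 3 (0.0485) and Hoxa9 from day 3 to 4 without wild-type day 3 replicate 3 (0.0245).

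The replicate block changed none of the 11 counts. The lowest correlation between same-numbered libraries was -0.204 to 0.051 by comparison, so the numbers were not taken as pairs. Depth limits the later days: after day 0 most Hox genes had under 10 counts in a group.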

Other observations

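Homeobox genes outside the clusters were also counted at these days. Otx2, a gene of the anterior epiblast and head, rose from 33.6 ± 9.31 CPM at day 0 to 264 ± 7.10 CPM at day 2 in wild-type and from 40.0 ± 0.460 to 278 ± 1.44 CPM in knock-out cells (n = 3), and was lower in the knock-out at day 4 (log2 fold change -0.87 ± 0.13, edgeR adjusted p = 1.51e-05). Gbx2, known in naive stem cells and later at the midbrain-hindbrain boundary, was 46.4 ± 5.76 CPM at day 0 in wild-type and 20.9 ± 1.28 CPM in knock-out cells (log2 fold change -1.15 ± 0.15, edgeR adjusted p = 4.6e-06). Gsx1, a ParaHox gene, had 19, 30 and 21 counts at day 2 in wild-type and 14, 20 and 27 in knock-out cells, and at most 6 in any library of the other days. Its relatives Gsx2 and Pdx1 had at most 7 counts in any library.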
